A study of Mus musculus with 24 samples.

Results

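Neural stem cells (NSCs) that had been derived from mouse embryonic stem cells (ESCs) were compared with astrocytes of newborn mice kept in culture (neoAC CellC), gene by gene, in bulk RNA-seq counts. The comparison rests on 8 of the 24 libraries of the study, chosen by their labels: the 4 NSC libraries against the 4 neoAC CellC libraries. All genes outside chromosomes X and Y were taken, 45231 of the 49671 genes counted, and 18941 of them passed a filter on low counts and were tested.

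NSCs came from a single ESC line of C57Bl/6N background. They were grown on gelatin in N2B27 medium with 20 ng/ml EGF and 20 ng/ml FGF at passages 50 to 60 and were enriched for bipolar cells by brief trypsin treatment, and their 4 replicates were independent cultures at different passages of this 1 line. The neonatal astrocytes came from the cerebrum of C57BL/6J mice 4 to 8 days old, sexes mixed, after removal of the meninges. Cells carrying the antigen ACSA-2, an epitope of the sodium pump subunit Atp1b2, were isolated with magnetic beads from 2 pooled mice per replicate, and were kept for 7 to 10 days in AstroMACS medium on poly-lysine and laminin. The mice were wild type, and no genetic change is stated for the ESC line. The substrain, the medium, the growth factors, the time in culture, the sort and the origin of the cells all differed between the groups, and their parts in a difference cannot be told apart. In bulk RNA, fewer cells of a type and less RNA per cell cannot be told apart either.

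Neural stem cells in EGF and FGF divide symmetrically and resemble radial glia, the embryonic cells that give rise to neurons and later to glia. Both growth factors signal through the ERK kinases, which drive the cell cycle and also induce their own inhibitors. Astrocytes arise from the same lineage, take up glutamate and potassium, carry water channels at their end feet, supply lipid to neurons and become reactive upon inflammation.

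Between 28770124 and 35192197 reads were counted on genes in each of these 8 libraries. NSC libraries had counts on 20777 to 21742 genes and neoAC CellC libraries on 23719 to 24125. Levels are given as CPM, counts relative to the size of the library, after scaling by the trimmed mean of M-values (TMM), as mean ± SD of 4 libraries, and 3 counts correspond to 0.0962 CPM in NSCs and to 0.0846 CPM in neoAC CellC. The log2 fold change is NSC minus neoAC CellC throughout, with its SE, so that a positive value is higher in NSCs. A gene was called different when its adjusted p in edgeR's quasi-likelihood test was under 0.05. Levels between genes are compared only per kilobase of exon (RPKM). Within each group every pair of libraries differed by more than counting noise, with a mean chi-square per gene of 11.1 to 76.7. NSC replicate 2 was the library that stood apart most often among the genes named.

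The groups differed in most genes. Of the 18941 genes tested, 15299 (80.8%) were called, 7384 (39.0%) higher in NSCs and 7915 (41.8%) higher in neoAC CellC, and the libraries did not overlap in 14060 (74.2%). The median of all genes was -0.05. Large differences lay on the neoAC CellC side: a log2 difference over 1 was found for 53.0% of the genes tested, 3759 higher in NSCs and 6273 higher in neoAC CellC, and one over 5 for 176 and 2419. Of the called genes, 777 had no count in any NSC library and 46 had none in any neoAC CellC library. The filter admitted a gene through any of the 6 groups. A gene near 0 in NSCs thus passed through groups where it was high, and its call adds little to its levels. The counts of genes called in each list below are to be set against the 39.0% and 41.8% of all genes. With library sizes alone in place of TMM the median moved to -0.27 and the calls to 6125 higher in NSCs and 8862 higher in neoAC CellC, so small differences depend on the scaling. By type, 6159 protein coding genes were higher in NSCs and 6512 lower, whereas of 702 lincRNAs tested 153 were higher and 380 lower. Processed pseudogenes went the other way (611 higher and 89 lower of 1139), but they share sequence with their parent genes and their counts are uncertain.

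**Figure D1:**
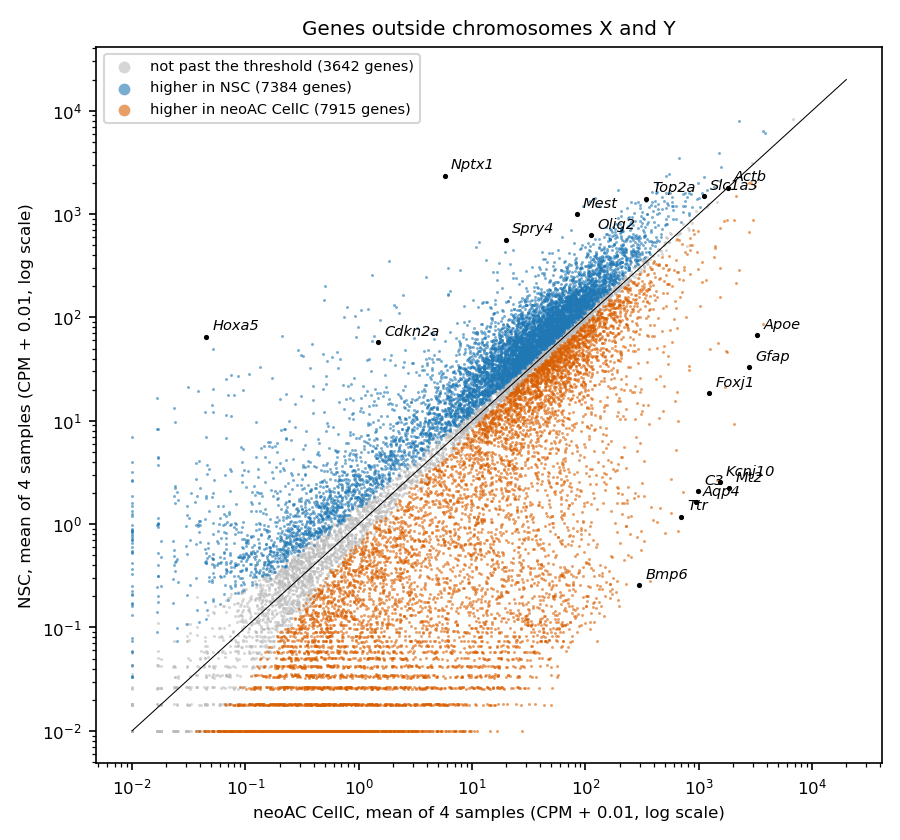
Mean level of each of the 18941 tested genes in neoAC CellC (x axis) and in NSCs (y axis), both in CPM + 0.01 on log scales, with the line of equal levels, blue for genes called higher in NSCs, orange for those higher in neoAC CellC and grey for the others. Far from the line, more genes lie at the lower right, as Bmp6 and Kcnj10 do, than at the upper left, where Hoxa5 and Nptx1 lie (2419 against 176 genes over a log2 difference of 5).

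Astrocyte markers were lower in NSCs, with exceptions. Of the 25 marker genes tested, 2 were higher in NSCs, 21 were higher in neoAC CellC and 2 did not pass the threshold, with a median of -3.37, where 39.0% and 41.8% of all genes were called in these directions with a median of -0.05. Gfap, the astrocyte intermediate filament, stood at 36.1, 33.1, 29.04 and 33.3 CPM in the 4 NSC libraries and at 2654, 3143, 2806 and 2576 CPM in the 4 neoAC CellC libraries. Aqp4, the end-foot water channel, was at 1.695, 2.03, 1.34 and 1.37 CPM in NSCs and at 614, 1145, 967 and 1081 CPM in neoAC CellC. The groups were far apart for both (log2 fold change -6.41 ± 0.18, adjusted p = 5.91e-21 for Gfap, and log2 fold change -9.20 ± 0.31, adjusted p = 1.69e-18 for Aqp4). Kcnj10, the inward rectifier potassium channel of astrocytes, had the largest difference of the list (2.55 ± 0.958 CPM against 1523 ± 177 CPM, log2 fold change -9.21 ± 0.31, adjusted p = 3.3e-18). Atp1b2, which carries the antigen used for the sort, was 25.4-fold higher in neoAC CellC (48.9 against 1243 CPM).

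Several genes often used as astrocyte markers did not separate the groups in that direction. Slc1a3, the glutamate transporter GLAST, was at 1513, 1571, 1299 and 1615 CPM in NSCs and 1215, 1116, 1095 and 1016 CPM in neoAC CellC. It was modestly higher in NSCs (log2 fold change 0.43 ± 0.13, adjusted p = 0.00436), with no overlap between the libraries. Glul, glutamine synthetase, was also higher in NSCs (534 against 416 CPM, 0.36 ± 0.12), with overlap. Both calls were lost with DESeq2 size factors (0.28 and 0.21) and with library sizes alone (0.21 and 0.13). For Aldoc, an aldolase enriched in astrocytes, and Acsbg1, an acyl-CoA synthetase, the means were 389.8 against 392 CPM and 648 against 676 CPM, and neither passed the threshold (95% intervals of the log2 difference -0.28 to 0.26 and -0.37 to 0.26).

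The list of neural stem cell markers was mixed. Among its 18 genes, 4 were higher in NSCs, 11 were higher in neoAC CellC and 3 did not pass the threshold, a median of -0.70. Nes, which encodes the filament nestin, was somewhat higher in NSCs (1398 ± 142 CPM against 965 ± 212 CPM, 0.54 ± 0.16), with overlap between the libraries and no call with library sizes alone (0.31), and Egfr, the EGF receptor, was the member with the largest difference in that direction (252 ± 19.6 CPM against 84.8 ± 4.68 CPM, 1.57 ± 0.09). Sox2, the transcription factor of neural progenitors, was lower in NSCs (98.5 against 156 CPM, -0.66 ± 0.11). Prom1, which encodes prominin-1 (CD133), was at 0.196, 0.213, 0.127 and 0.0669 CPM in NSCs and at 81.4, 108, 113 and 104 CPM in neoAC CellC. Low in NSCs were also Nr2e1 (1.52 and 71.5 CPM, -5.56 ± 0.17) and Sox1 (2.68 and 69.3 CPM, -4.69 ± 0.13), nuclear receptor Tlx and a SOXB1 factor of the neuroepithelium. Fabp7, the brain lipid-binding protein of radial glia, had the highest RPKM of the list in NSCs and did not pass the threshold (806 against 719.6 CPM, adjusted p = 0.452). Set against the label of neural stem cells, Nes, Egfr, Fabp7 and Sox2 were present in every NSC library, whereas Prom1 was near 0.

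Among 31 transcription factors of neural stem cells, 30 of which were tested, 12 were higher in NSCs, 14 were higher in neoAC CellC and 4 did not pass the threshold, near the shares over all genes. The basic helix-loop-helix factors Olig1 and Olig2, which specify motor neuron progenitors and oligodendrocytes, were higher in NSCs. Olig2 was at 651, 531, 674 and 643 CPM in NSCs and 194, 62.3, 88.8 and 106 CPM in neoAC CellC, without overlap. Olig1 differed less (1334 ± 95.5 CPM against 409 ± 189.9 CPM, 1.71 ± 0.23). The largest difference towards NSCs was that of Myc (214 against 36.7 CPM, 2.54 ± 0.14). Gsx2, a factor of the ventral forebrain, had no count in any NSC library and was at least 20.97-fold higher in neoAC CellC (2.02 ± 0.459 CPM), measured against a floor of 3 counts per library, which is used for all such bounds here.

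**Figure D2:**
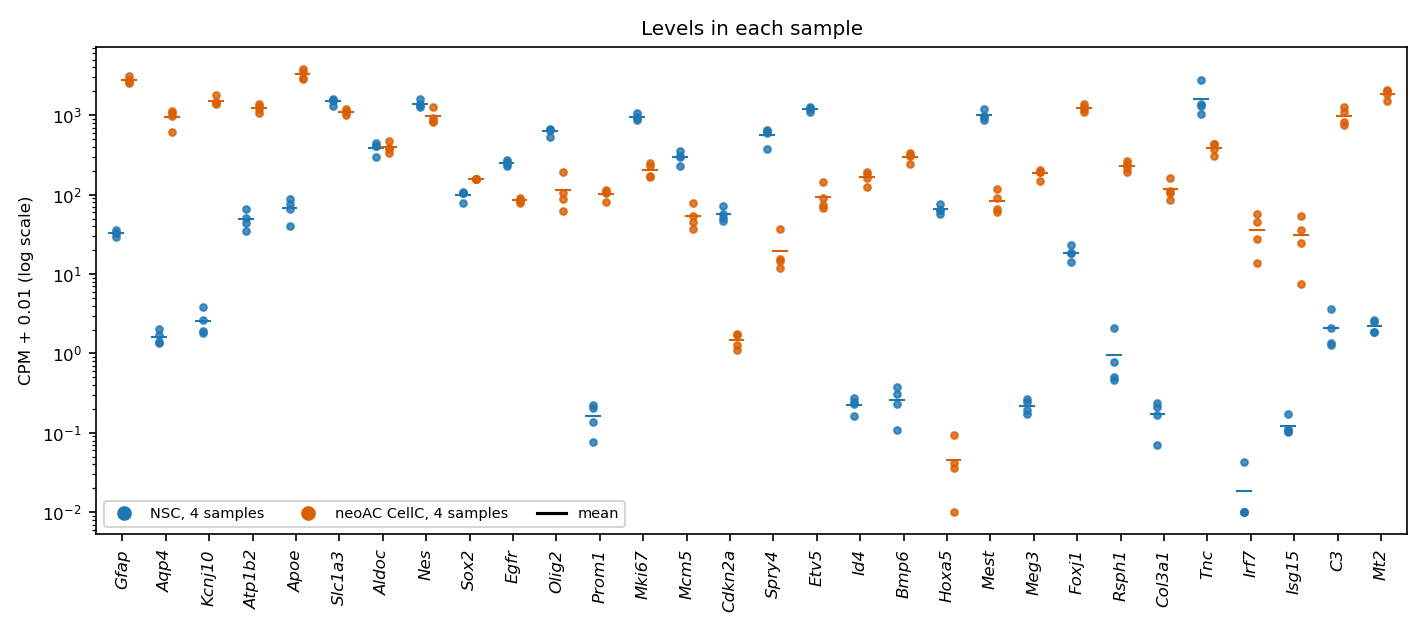
Level of 30 genes in each of the 8 libraries (points, CPM + 0.01, log scale) with the group means (bars), NSC in blue and neoAC CellC in orange. The groups overlap for Aldoc and Nes and for no other gene drawn. The libraries of Bmp6, for example, lie at 0.0978, 0.364, 0.223 and 0.301 CPM in NSCs and at 239.7, 308, 316 and 332 CPM in neoAC CellC.

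Among genes of the astrocyte's homeostatic functions, those of ion and water homeostasis were lower in NSCs for the most part. In the list of ion and water homeostasis, 14 of 18 genes were higher in neoAC CellC and 2 in NSCs (median -2.43). Lower in NSCs were, next to Kcnj10 and Aqp4, the sodium pump subunit Atp1b1 (14.04 and 322 CPM, -4.52 ± 0.13) and the bicarbonate transporter Slc4a4 (46.6 and 481 CPM, -3.37 ± 0.20). Mlc1, a membrane protein of astrocyte end feet, had the highest RPKM of the list in both groups and was lower in NSCs (490.5 against 1388 CPM, -1.50 ± 0.10). The chloride importer Slc12a2 (NKCC1) had the largest difference towards NSCs (324 against 74.5 CPM, 2.12 ± 0.13). Of 9 connexins and pannexins, 5 were lower in NSCs, with Gja1 (connexin 43, 15.5 against 613 CPM, -5.30 ± 0.33) at the highest RPKM and Gjb2 (0.0167 and 1.85 CPM, ratio 111, 95% counting interval 32.4 to 979.5), connexin 26, with the largest difference, and 3 were higher, Gjc1 (48.1 and 19.8 CPM, 1.28 ± 0.09) and Panx1 (51.1 and 16.1 CPM, 1.66 ± 0.13) among them. Only 2 connexins or pannexins were higher with DESeq2 size factors or library sizes alone, and 41.8% and 39.0% of all genes were lower and higher. Of the 11 genes of glutamate uptake and the glutamine cycle 4 were higher and 5 lower in NSCs, shares near the 39.0% and 41.8% of all genes, and 2 were higher with DESeq2 size factors or library sizes alone. Slc38a3, a glutamine transporter, was lower in NSCs (231 against 1151 CPM, -2.32 ± 0.12) and Slc38a2, another one, higher (212 against 61.3 CPM, 1.79 ± 0.19).

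Astrocyte transcription factors were mostly lower in NSCs (18 of 23 genes, 2 higher, median -1.57). Sox9 (79.3 against 235 CPM), Nfix (201 against 583 CPM) and Zbtb20 (75.0 against 560.3 CPM) were lower, whereas Nfia, which starts gliogenesis, was higher in NSCs (190.1 against 127 CPM, 0.58 ± 0.08) as was Rfx4 (136 against 88.9 CPM, 0.62 ± 0.12), and Nfib did not pass the threshold. Pbxip1, a PBX-interacting protein, had the highest RPKM in neoAC CellC (265 against 831 CPM, -1.65 ± 0.11). The largest difference was that of Id4, an inhibitor of basic helix-loop-helix factors. It was at 0.261, 0.152, 0.223 and 0.234 CPM in NSCs and at 124, 194, 182 and 163 CPM in neoAC CellC (log2 fold change -9.56 ± 0.39, adjusted p = 2.73e-16).

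Among receptors that couple to calcium or gate transmitter currents, 23 of 37 were lower and 8 higher in NSCs (median -1.67, or -1.36 with genes without counts in a group at their bound). The shares over all genes were 41.8% lower and 39.0% higher. Gabrb1 (0.153 and 137 CPM, -9.78 ± 0.27) and Ednrb (4.08 and 330.1 CPM, -6.34 ± 0.36), a GABA-A receptor subunit and the endothelin B receptor, were lower. Chrm3, the M3 muscarinic receptor, went the other way, with 127, 119.9, 126 and 127 CPM there and 0.936, 0.288, 0.776 and 1.14 CPM in neoAC CellC. Also higher in NSCs were the AMPA receptor subunit Gria4 (64.9 and 8.33 CPM, 2.96 ± 0.21) and the GABA-A subunit Gabra2 (48.8 and 4.03 CPM, 3.60 ± 0.18). The adenosine receptor Adora1 had the highest RPKM of the list in NSCs and was lower there than in neoAC CellC (137 against 287 CPM, -1.07 ± 0.11). Of 23 factors that act on synapse formation or pruning, 17 were lower in NSCs, the TAM receptor ligand Gas6 (1.26 and 567 CPM, -8.79 ± 0.20) with the largest difference and the thrombospondin Thbs1 (2.02 and 726 CPM, -8.49 ± 0.24) next to it, and 4 were higher, the heparin-binding cytokine Ptn (1605 against 512 CPM, 1.65 ± 0.18) with the largest difference and the highest RPKM in NSCs. Thyroid hormone and retinoid genes were lower too, 19 of 24 (median -4.83, or -4.25 with genes without counts in a group at their bound), among them the deiodinase Dio2 (0.6505 and 22.4 CPM, -5.10 ± 0.19) and the retinaldehyde dehydrogenase Aldh1a1 (20.3 and 312 CPM, -3.94 ± 0.22). The thyroid hormone receptor Thra had the highest RPKM in NSCs and was higher in neoAC CellC (149.8 against 261 CPM). The retinoic acid receptor Rara was the 1 member higher in NSCs (44.8 against 9.47 CPM, 2.24 ± 0.23).

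Markers of other cell types that such cultures could hold were measured in both groups. Choroid plexus markers were all higher in neoAC CellC (10 of 10, median -6.88), with a summed level of 5.29 to 8.59 CPM in the NSC libraries and 510.5 to 1456 CPM in the neoAC CellC libraries. In neoAC CellC most of the summed level was Ttr, transthyretin, at 398, 1267, 612 and 519 CPM in the 4 libraries, against 1.304, 1.002, 1.18 and 1.204 CPM in NSCs. Calml4 was the member with the highest RPKM in NSCs (3.71 against 36.5 CPM). Of 12 fibroblast and meningeal markers 10 were higher in neoAC CellC (summed level 65.3 to 109 CPM in the NSC libraries and 606 to 936 CPM in the neoAC CellC libraries), with Dcn (0.0165 and 16.97 CPM, ratio 1028, 95% counting interval 296 to 8844), decorin, at the largest difference and Ogn (0.404 and 107 CPM, -8.02 ± 0.38), another small proteoglycan, at the highest RPKM in neoAC CellC. Tbx18 and Foxc1, transcription factors of mesenchyme, were higher in NSCs (46.9 against 5.13 CPM and 32.7 against 8.67 CPM).

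Of 10 pericyte and smooth muscle markers 7 were higher in neoAC CellC (summed level 87.4 to 204 CPM in the NSC libraries and 833 to 1513 CPM in the neoAC CellC libraries), above all Tagln (0.851 and 653 CPM, -9.58 ± 0.21) and Acta2 (1.04 and 429 CPM, -8.69 ± 0.33), both of the smooth muscle cytoskeleton. Notch3 was higher in NSCs (120.2 against 47.1 CPM). Among 10 endothelial markers 4 were higher in NSCs and 3 lower, where 39.0% and 41.8% of all genes were called in these directions. The summed levels of these markers were 9.999 to 17.3 CPM in the NSC libraries and 86.6 to 135 CPM in the neoAC CellC libraries. Emcn, Egfl7, Tek and Esam were the 4 higher in NSCs, none with a mean above 5 CPM (1.99 against 0.121 CPM for Emcn and 4.66 against 2.57 CPM for Egfl7). The call of Egfl7 was lost without NSC replicate 2 (0.57), and that of Esam (0.531 against 0.224 CPM) when either of NSC replicates 2 and 3 (1.07 and 1.11) or any of neoAC CellC replicates 1, 2 and 4 was left out (1.17, 1.14 and 1.23). Both were lost with DESeq2 size factors too. The transporter Slco1a4 had 1 count in the 4 NSC libraries together and 49.3 ± 8.51 CPM in neoAC CellC, and Kdr 0.246 against 47.5 CPM, but the defining markers Cldn5 and Pecam1 were under 0.5 CPM in both groups (0.0157 against 0.0688 CPM and 0.2201 against 0.356 CPM).

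Of 15 microglia and macrophage markers 11 were higher in neoAC CellC and 1 in NSCs, the latter not with DESeq2 size factors, and 5 were higher in neoAC CellC in a fit of the 8 libraries. The summed level was 49.7 to 69.2 CPM in the NSC libraries and 45.8 to 62.7 CPM in the neoAC CellC libraries. C1qb, Cx3cr1 and Aif1 had no count in any NSC library and 0.819, 0.385 and 0.147 CPM in neoAC CellC. Of 14 neuron markers 12 were higher in neoAC CellC and 2 in NSCs (median -4.90, or -4.41 with genes without counts in a group at their bound), and 2 had no count in any NSC library, Gad2 (3.81 ± 0.362 CPM in neoAC CellC) and Slc17a6. The summed level was 498 to 701 CPM in the NSC libraries and 499.5 to 557 CPM in the neoAC CellC libraries, and Map2, a microtubule-associated protein, made up most of it (594 against 419 CPM, 0.50 ± 0.11). Gad1, which makes GABA, was the other gene higher in NSCs (18.2 against 6.45 CPM, 1.50 ± 0.26). Neuroblast and interneuron markers were higher in neoAC CellC for 11 of 12 genes tested, the surface antigen Cd24a (43.8 and 208 CPM, -2.24 ± 0.17) at the highest RPKM and the lncRNA Dlx6os1 (0.0155 and 14.4 CPM, ratio 926, 95% counting interval 250.2 to 7478) with the largest difference. Sox11 was higher in NSCs (133 against 45.6 CPM, 1.54 ± 0.10). Mature oligodendrocyte markers summed to 13.04 to 20.4 CPM in the NSC libraries and 244 to 313 CPM in the neoAC CellC libraries, most of the latter being Cnp (2.25 against 192 CPM). Oligodendrocyte precursor markers were lower in NSCs for 8 of 12 genes and higher for 3 (median -1.90). Pdgfra (11.4 and 55.8 CPM, -2.29 ± 0.22), Cspg4 (0.734 and 31.1 CPM, -5.39 ± 0.22) and Sox10 (0.305 and 9.35 CPM, -4.89 ± 0.48) were lower in NSCs, Sox10 at -5.63 without NSC replicate 2, as was the factor Nkx2-2 with 1 count in the NSC libraries together and 8.802 ± 2.71 CPM in neoAC CellC, while Olig1, Olig2 and Bcas1 (169 and 6.12 CPM, 4.79 ± 0.25) were higher. What part these other cells had in the differences was not tested.

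Genes of cell division were higher in NSCs. All 47 DNA replication genes tested were called higher in NSCs, against 39.0% of all genes, with a median of 1.90, and their summed level was 5667 to 7267 CPM in the NSC libraries and 1616 to 2295 CPM in the neoAC CellC libraries. The origin recognition subunit Orc1 had the largest difference (17.3 ± 2.76 CPM against 1.64 ± 0.536 CPM, log2 fold change 3.40 ± 0.27, adjusted p = 1.34e-11) and the sliding clamp Pcna the highest RPKM in NSCs (342 against 107 CPM, 1.67 ± 0.11). In neoAC CellC the highest RPKM was that of Rrm2, a ribonucleotide reductase subunit (298 against 138 CPM, 1.11 ± 0.15). The replicative helicase subunit Mcm5 was at 294, 229, 355 and 306 CPM in NSCs and 79.2, 36.97, 45.3 and 53.2 CPM in neoAC CellC, and the libraries did not overlap. With DESeq2 size factors 46 of the 47 were called, without Orc3 (53.6 against 40.1 CPM, 0.42 ± 0.13). Of 45 genes of mitosis, 44 were higher in NSCs (median 1.56). Mki67, the proliferation antigen Ki-67, was at 936, 878, 944 and 1072 CPM in NSCs and 248, 173, 167 and 232 CPM in neoAC CellC. The kinase Ttk had the largest difference (81.8 against 13.4 CPM, 2.61 ± 0.14) and topoisomerase Top2a the highest RPKM in NSCs (1408 against 342 CPM, 2.04 ± 0.12). Ccnb2, a mitotic cyclin, was the 1 member that did not pass the threshold, with a log2 difference of 0.00 (45.1 against 45.1 CPM). The genes of mitosis were present in neoAC CellC as well, where Cdc20, an activator of the anaphase complex, had the highest RPKM (204 against 100.0 CPM, 1.03 ± 0.18). Their summed level was 9354 to 10322 CPM in the NSC libraries and 2789.6 to 3806 CPM in the neoAC CellC libraries.

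The promoters of the replication genes are described here by their letters only, and what regulates these genes was not tested. In the 250 bases before the transcription start, in RefSeq on GRCm38.p6, the E2F letters TTTCCCGC or TTTGGCGC were searched on both strands. They were found for 6 of the 39 list members that matched a RefSeq promoter (Cdc6, Gins3, Mcm5, Mcm6, Mcm7 and Orc3). Of all 25748 genes with a promoter outside chromosomes X and Y, 1.5% had them in the same length. The promoter of Mcm6 lies at chr1:128359706-128359955 (- strand) and holds 2 matches, 110 and 47 bases before the start, and that of Mcm5 at chr8:75109259-75109508 (+ strand) holds 1, 149 bases before the start. Matches are in capitals.
Mcm6: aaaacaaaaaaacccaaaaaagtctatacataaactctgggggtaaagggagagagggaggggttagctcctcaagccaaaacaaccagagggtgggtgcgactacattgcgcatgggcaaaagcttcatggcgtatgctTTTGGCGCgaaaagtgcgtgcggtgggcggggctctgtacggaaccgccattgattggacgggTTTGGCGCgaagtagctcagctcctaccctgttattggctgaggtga
Mcm5: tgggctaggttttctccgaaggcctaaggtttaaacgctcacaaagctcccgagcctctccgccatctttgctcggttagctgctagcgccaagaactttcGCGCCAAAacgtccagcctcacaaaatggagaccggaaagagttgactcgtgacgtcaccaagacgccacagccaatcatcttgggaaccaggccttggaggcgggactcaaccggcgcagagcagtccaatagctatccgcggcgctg

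Regulators of entry into the cycle were higher on balance (16 of 25 higher, 6 lower). Ccnd1, cyclin D1, was at 1545, 1538, 1387 and 1366 CPM in NSCs and varied in neoAC CellC, at 876, 322, 271 and 424 CPM. The cyclin E gene Ccne1 (57.7 and 12.2 CPM, 2.24 ± 0.14) and the kinase gene Cdk4 (448 and 171 CPM, 1.39 ± 0.09) were higher as well. The inhibitors moved in opposite directions. Cdkn2a, which encodes p16Ink4a and p19Arf, was at 57.8, 72.4, 47.2 and 51.5 CPM in NSCs and at 1.75, 1.101, 1.27 and 1.72 CPM in neoAC CellC (log2 fold change 5.30 ± 0.16, adjusted p = 3.08e-20). Cdkn1c (p57) had the largest difference in the other direction (0.0319 against 15.8 CPM, -8.78 ± 0.35), and Cdkn1a (p21) was lower too (109 against 174 CPM, -0.68 ± 0.19). Cdk6 also was lower in NSCs (2.12 against 61.8 CPM, -4.86 ± 0.18).

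Feedback genes of the ERK pathway, which growth factors induce, were higher in NSCs. Of 26 genes for FGF and EGF receptors and ERK feedback, 18 were higher, 6 lower and 2 did not pass (median 1.42). Spry4, an inhibitor of receptor tyrosine kinase signaling, stood at 601, 379, 629.8 and 656 CPM in NSCs and at 37.03, 14.6, 11.9 and 15.6 CPM in neoAC CellC. Etv5, an ETS factor downstream of FGF, was at 1254, 1098, 1208 and 1232 CPM in NSCs and at 145, 68.4, 74.03 and 89.7 CPM in neoAC CellC. For both the first neoAC CellC library was the highest of its group, and both differed without overlap (4.84 ± 0.33 and 3.67 ± 0.17), and so did Spry1 (193 and 18.4 CPM, 3.40 ± 0.29), Dusp4 (149 and 15.9 CPM, 3.22 ± 0.16), Dusp6 (478 and 99.4 CPM, 2.27 ± 0.19) and Il17rd (91.4 and 9.37 CPM, 3.29 ± 0.12). The receptors themselves did not share this direction. Fgfr1, the one with the highest RPKM in neoAC CellC, did not pass the threshold (499.7 against 496 CPM, 95% interval of the log2 difference -0.16 to 0.19) and was lower in NSCs with library sizes alone (-0.21), whereas Fgfr3 (43.2 and 207 CPM, -2.26 ± 0.22) and Fgfr2 (47.5 and 163 CPM, -1.78 ± 0.12) were lower in NSCs and Egfr was higher. For Fgfr3 the second NSC library, at 78.3 CPM, stood above the other 3. Erbb4, a neuregulin receptor, had the largest difference towards neoAC CellC (0.0476 against 32.6 CPM, -9.30 ± 0.25). The immediate early gene Egr1 was lower in NSCs (67.3 against 186 CPM, -1.47 ± 0.29).

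In the BMP list 16 of 25 genes were lower in NSCs and 6 higher, against 41.8% and 39.0% of all genes. Bmp6 was among the genes with the largest fold of all, at 0.0978, 0.364, 0.223 and 0.301 CPM in NSCs and 239.7, 308, 316 and 332 CPM in neoAC CellC (1212-fold). The Id genes, targets of BMP signaling, were all lower in NSCs, from Id4 over Id1 (17.5 and 94.2 CPM, -2.43 ± 0.17) and Id2 (22.7 and 99.6 CPM, -2.14 ± 0.15) to Id3, which was the member with the highest RPKM in both groups and whose libraries overlapped (151 against 225 CPM, -0.57 ± 0.15). Inhibitory Smad6 (2.73 and 17.1 CPM, -2.63 ± 0.23) and Smad7 (2.35 and 11.7 CPM, -2.32 ± 0.21) were lower too. Among the receptors Bmpr1b was lower (10.3 against 32.8 CPM) and Bmpr1a higher (291 against 141 CPM), and Bmp7 was the 1 ligand of the list higher in NSCs (74.8 against 21.9 CPM, 1.77 ± 0.19). 

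Of 24 Notch genes 10 were higher and 13 lower in NSCs, where 39.0% and 41.8% of all genes were called in these directions, so that the share higher was close to that of all genes. Jag1, a ligand, was at 201, 180.2, 140.2 and 194 CPM in NSCs and at 10.02, 7.02, 3.74 and 4.91 CPM in neoAC CellC. Lfng, a glycosyltransferase that modifies Notch, had the highest RPKM in both groups and was called lower in NSCs (99.6 against 129 CPM, -0.37 ± 0.13), but not without neoAC CellC replicate 1 (-0.23). Of the targets, Hes1 (34.8 and 15.1 CPM, 1.20 ± 0.19) was higher in NSCs, and Hey1 (16.96 and 156 CPM, -3.20 ± 0.17) and Dtx1 (0.413 and 100.3 CPM, -7.90 ± 0.25) were lower. Of the 15 Hedgehog genes 5 were higher and 6 lower, also near the shares over all genes. The antagonist Hhip (18.5 and 1.45 CPM, 3.66 ± 0.27) was higher in NSCs and the ligand Shh lower (0.0799 against 5.96 CPM), while Gas1, a coreceptor with the highest RPKM in both groups, was higher (332 against 134 CPM, 1.31 ± 0.16) and the receptor and target gene Ptch1 did not pass the threshold (94.4 against 96.8 CPM).

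Hox genes, which give positional identity to the hindbrain and spinal cord and are silent in the forebrain, were expressed in NSCs. The 39 Hox genes of the 4 clusters summed to 212 to 244 CPM in the NSC libraries and 0.5304 to 0.915 CPM in the neoAC CellC libraries. In NSCs 13 of the 39 reached a mean of 1 CPM, 8 in the Hoxa cluster (chr6:52155590-52260880) and 5 in the Hoxb cluster (chr11:96194316-96368256), and in neoAC CellC none did. In the Hoxc and Hoxd clusters no Hox gene reached it in either group, although Hoxd8 was just under it in NSCs (0.978, 0.971, 1.15 and 0.903 CPM). Hoxa5 had the highest RPKM in NSCs and was at 63.7, 76.4, 56.9 and 63.2 CPM in NSCs and 0.0312, 0.0262, 0.0832 and 0 CPM in neoAC CellC, where it had 5 counts in all (95% counting interval of the ratio 796 to 5723, log2 fold change 10.71 ± 0.24, adjusted p = 1.72e-22). Hoxa3 had 52.2, 43.96, 50.8 and 48.8 CPM in NSCs and 0, 0, 0.0554 and 0.111 CPM in neoAC CellC. Hoxa4 had no count in neoAC CellC and 6.898 ± 1.19 CPM in NSCs, at least 81.5-fold higher. Hoxb9, with the highest RPKM in neoAC CellC, differed less (1.19 against 0.254 CPM, 2.21 ± 0.67). NSC replicate 3, at 3.18 CPM, stood above the other 3, and without that library the call was lost (1.04). Of the 16 Hox genes that passed the filter 15 were called higher in NSCs and 1, Hoxd1, had no count in either group. The filter admitted genes through the group in which they were high. Their median was 8.32, or 7.24 with the 4 genes that had a group without counts at their bound. The sum over the 39 genes was 196.4 to 215.5 CPM in AGES, astrocytes made from these NSCs with BMP4. It was 1.89 CPM at most in the 3 other groups, with that value in astrocytes isolated directly from adult mice. The other groups were cultured adult astrocytes and directly isolated neonatal astrocytes.

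**Figure D3:**
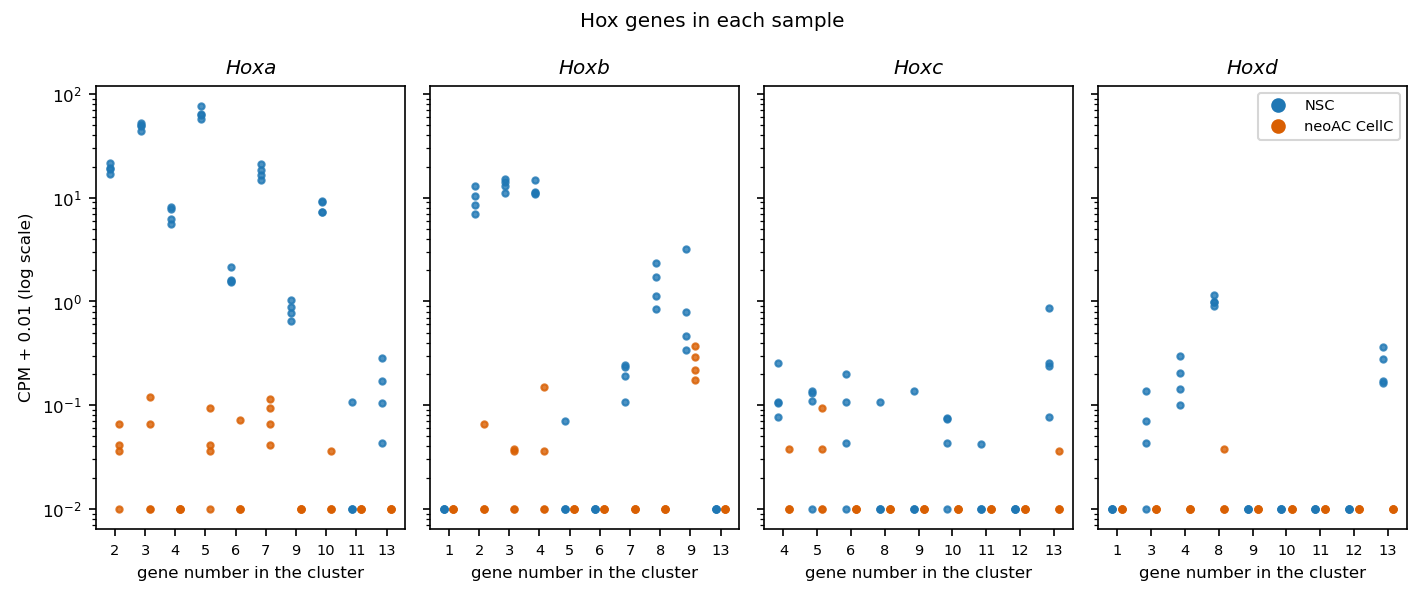
Level of the Hox genes reported here in the 4 NSC libraries (blue) and the 4 neoAC CellC libraries (orange), in CPM + 0.01 on a log scale, by cluster and by the number of the gene in its cluster. Points at 0.01 have no counts. The points of Hoxa5 lie at 63.7, 76.4, 56.9 and 63.2 CPM in NSCs, and no gene drawn has a mean of 1 CPM in neoAC CellC.

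Forebrain and midbrain patterning factors showed the opposite direction in 21 of 28 genes tested, with 5 higher in NSCs and a median of -2.27. Otx2, a homeobox factor of the forebrain and midbrain, was at 0, 0.121, 0 and 0.1003 CPM in NSCs and 18.9, 27.04, 25.4 and 27.2 CPM in neoAC CellC (-8.69 ± 0.29, or -9.40 without NSC replicate 2). Otx2 is also a member of the choroid plexus list, whose genes were all higher in neoAC CellC, and which cells held its RNA was not tested. Six3 (0.895 and 24.9 CPM, -4.79 ± 0.19), Meis2 (20.1 and 114 CPM, -2.50 ± 0.14) and Lhx2 (24.9 and 82.2 CPM, -1.72 ± 0.11) were lower in NSCs as well, Lhx2 with the highest RPKM in neoAC CellC. The 5 genes higher in NSCs were the engrailed factors En1 (6.55 and 0.241 CPM, 4.75 ± 0.42) and En2 (21.9 and 2.53 CPM, 3.11 ± 0.18), then Gbx2 (3.59 and 1.28 CPM, 1.50 ± 0.33), and the Iroquois factors Irx1 (20.3 and 11.2 CPM, 0.86 ± 0.18) and Irx2 (22.8 and 10.02 CPM, 1.18 ± 0.13). These are genes of the midbrain-hindbrain boundary and its neighbors. The Pax genes of that boundary and the other Iroquois factors in the list were not called higher in NSCs. Pax9, a paired box factor outside the list, was 22.4, 21.9, 20.7 and 19.8 CPM in NSCs and had 3 counts in the 4 neoAC CellC libraries together (ratio 1014, 95% counting interval 344 to 4883).

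Imprinted genes, expressed from 1 parental copy, were called higher at a share near the 39.0% of all genes. Of all genes 41.8% were called lower. Of 38 tested, 14 were higher in NSCs, 20 lower and 4 did not pass (median -0.99). Mest was at 955, 873, 1184 and 974 CPM in NSCs and 118, 60.8, 66.1 and 90.1 CPM in neoAC CellC (log2 fold change 3.58 ± 0.24, adjusted p = 2.19e-12). Peg10, a retrotransposon-derived gene, was at 1402, 999, 1242 and 1155 CPM in NSCs and 102, 124, 148 and 148 CPM in neoAC CellC, and Peg3 (243 and 63.04 CPM, 1.95 ± 0.15) and Peg12 (47.4 and 7.49 CPM, 2.66 ± 0.18) were higher as well. In contrast, the imprinted domain between Dlk1 and Dio3 (chr12:109452823-110281097) was near 0 in NSCs: of the 104 genes annotated there, 99 had no count in any NSC library and 80 had none in any neoAC CellC library, and the highest mean in NSCs was 0.208 CPM. Its lncRNA Meg3 was at 0.163, 0.182, 0.255 and 0.234 CPM in NSCs and 150.1, 191, 196 and 205 CPM in neoAC CellC. The 6 genes of the domain that were tested passed the filter through groups other than NSCs, so that their being called lower in NSCs adds nothing to their levels. They included Dlk1 (0.0326 and 39.4 CPM, -10.10 ± 0.33), Rian (0.0946 and 91.3 CPM, -9.84 ± 0.24) and Mirg (0.0228 and 2.83 CPM, ratio 124, 95% counting interval 40.2 to 577) besides Meg3 and Dio3 (0.00759 against 26.99 CPM), the last being the imprinted gene with the largest difference. The domain was singled out after the values were seen. Low in NSCs were also Ndn (0.167 and 119 CPM, -9.44 ± 0.29), Nnat (0.943 and 229.8 CPM, -7.91 ± 0.17), Grb10 (0.128 and 25.9 CPM, -7.62 ± 0.29), H19 (0.0244 and 13.2 CPM, ratio 540.0, 95% counting interval 188 to 2664) and Igf2 (0.297 and 57.96 CPM, -7.59 ± 0.38), of which Nnat had the highest RPKM in neoAC CellC. The levels of alleles were not measured.

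Genes of the Lin28 and let-7 circuit, which times development, were higher for 5 of 13 tested and lower for 3. Of all genes 39.0% were called higher and 41.8% lower, so the share higher was near that of all genes. The chromatin protein Hmga2 was at 72.3, 66.5, 47.3 and 71.3 CPM in NSCs and at 2.56, 0.576, 0.0832 and 0.554 CPM in neoAC CellC (log2 fold change 6.14 ± 0.39, adjusted p = 1.33e-12), and the let-7 target Trim71 (5.67 and 0.152 CPM, 5.17 ± 0.30) was higher with it. The first neoAC CellC library stood above the other 3 for Hmga2, and without it the log2 fold change was 7.29. Igf2bp1, an RNA-binding protein, had the largest difference towards neoAC CellC (0.0165 against 3.04 CPM) and Cdc34 the highest RPKM in both groups without passing the threshold (59.9 against 54.8 CPM). Lin28a and Lin28b were under the floor in both groups. The pluripotency factors Pou5f1 and Zfp42 had no count in any of the 8 libraries, which allows up to 0.0962 CPM per library. Of the 12 markers of that list, 5 were tested: Esrrb (7.47 and 0.881 CPM, 3.09 ± 0.27) was higher in NSCs, Tfcp2l1 (0.191 and 148 CPM, -9.56 ± 0.28), Tdgf1 (0.0402 and 1.43 CPM, -5.04 ± 0.60) and Nanog (0.834 and 1.83 CPM, -1.12 ± 0.27) were lower and Klf4 did not pass the threshold. Nanog has near-identical retrocopies, so its counts are uncertain. Of 28 germline genes 12 were tested, with 1 higher in NSCs (Stag3, 16.6 against 7.196 CPM) and 7 lower. The largest of these was Dmc1, a meiotic recombinase, with no count in NSCs and 1.02 ± 0.23 CPM in neoAC CellC.

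Genes of motile cilia were far lower in NSCs. Of the 52 genes for the axoneme and dynein arms, 51 were higher in neoAC CellC, against 41.8% of all genes, with a median of -7.96, or -7.88 with genes without counts in a group at their bound. Their summed level was 74.5 to 124 CPM in the NSC libraries and 3059 to 3844 CPM in the neoAC CellC libraries. The radial spoke gene Rsph1 had the highest RPKM in neoAC CellC, at 214, 241, 263 and 194 CPM, and 0.456, 2.09, 0.764 and 0.502 CPM in NSCs, where the second library was the highest and without which its log2 fold change was -8.62. Rsph4a had the largest difference, 0.0326, 0.152, 0.127 and 0.0334 CPM in NSCs and 101, 122, 114 and 102 CPM in neoAC CellC. Spag6, higher in NSCs, had a low level (0.875 against 0.239 CPM) and a close paralog, Spag6l, which was lower (0.0944 against 87.6 CPM), so that its counts are uncertain. Cfap43 was the member with the highest RPKM in NSCs (47.6 against 85.2 CPM, -0.84 ± 0.15).

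The regulators of multiciliated cells moved with the structural genes, 20 of 20 ependymal and multiciliated markers being higher in neoAC CellC (median -8.18). In NSCs 6 of these 20 were under the floor of 3 counts per library. Foxj1, the master factor of motile ciliogenesis, was at 18.2, 18.3, 22.9 and 13.98 CPM in NSCs and 1206, 1254, 1398 and 1108 CPM in neoAC CellC. Mcidas, which starts the program, had 2 counts in the NSC libraries together and 39.04 ± 5.42 CPM in neoAC CellC (ratio 2424, 95% counting interval 679 to 20258), and Deup1, of the deuterosome, 0.102 against 109.8 CPM. Genes shared by all cilia differed less. Of 38 genes for intraflagellar transport and the BBSome, 34 were higher in neoAC CellC and 3 in NSCs, with a median of -1.46, and Ift172 (30.4 and 148 CPM, -2.28 ± 0.08) and Ift88 (6.08 and 28.5 CPM, -2.23 ± 0.11) were lower in NSCs, while Ttc21b (35.3 and 14.9 CPM, 1.24 ± 0.10) was higher. Ift20 had the highest RPKM of that list in both groups (36.5 against 67.7 CPM, -0.89 ± 0.08) and Ttc30b the largest difference (3.41 against 69.5 CPM, -4.35 ± 0.15).

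The X-box letters GTTGCCA of the RFX factors were found within 250 bases before the start for 5 of 41 matched axoneme genes (Cfap44, Dnah7b, Drc1, Hydin and Tekt1). They were found for 4.22% of all genes with a promoter. That of Tekt1, a tektin of the axonemal doublets (0.0552 against 69.6 CPM), lies at chr11:72361883-72362132 (- strand) and is given as an example, with the match, 15 bases before the start, in capitals.
Tekt1: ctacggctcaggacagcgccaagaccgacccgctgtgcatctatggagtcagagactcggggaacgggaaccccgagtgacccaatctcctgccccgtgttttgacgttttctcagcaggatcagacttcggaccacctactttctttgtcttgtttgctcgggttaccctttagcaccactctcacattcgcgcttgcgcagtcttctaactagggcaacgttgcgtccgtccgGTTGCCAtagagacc

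**Figure D4:**
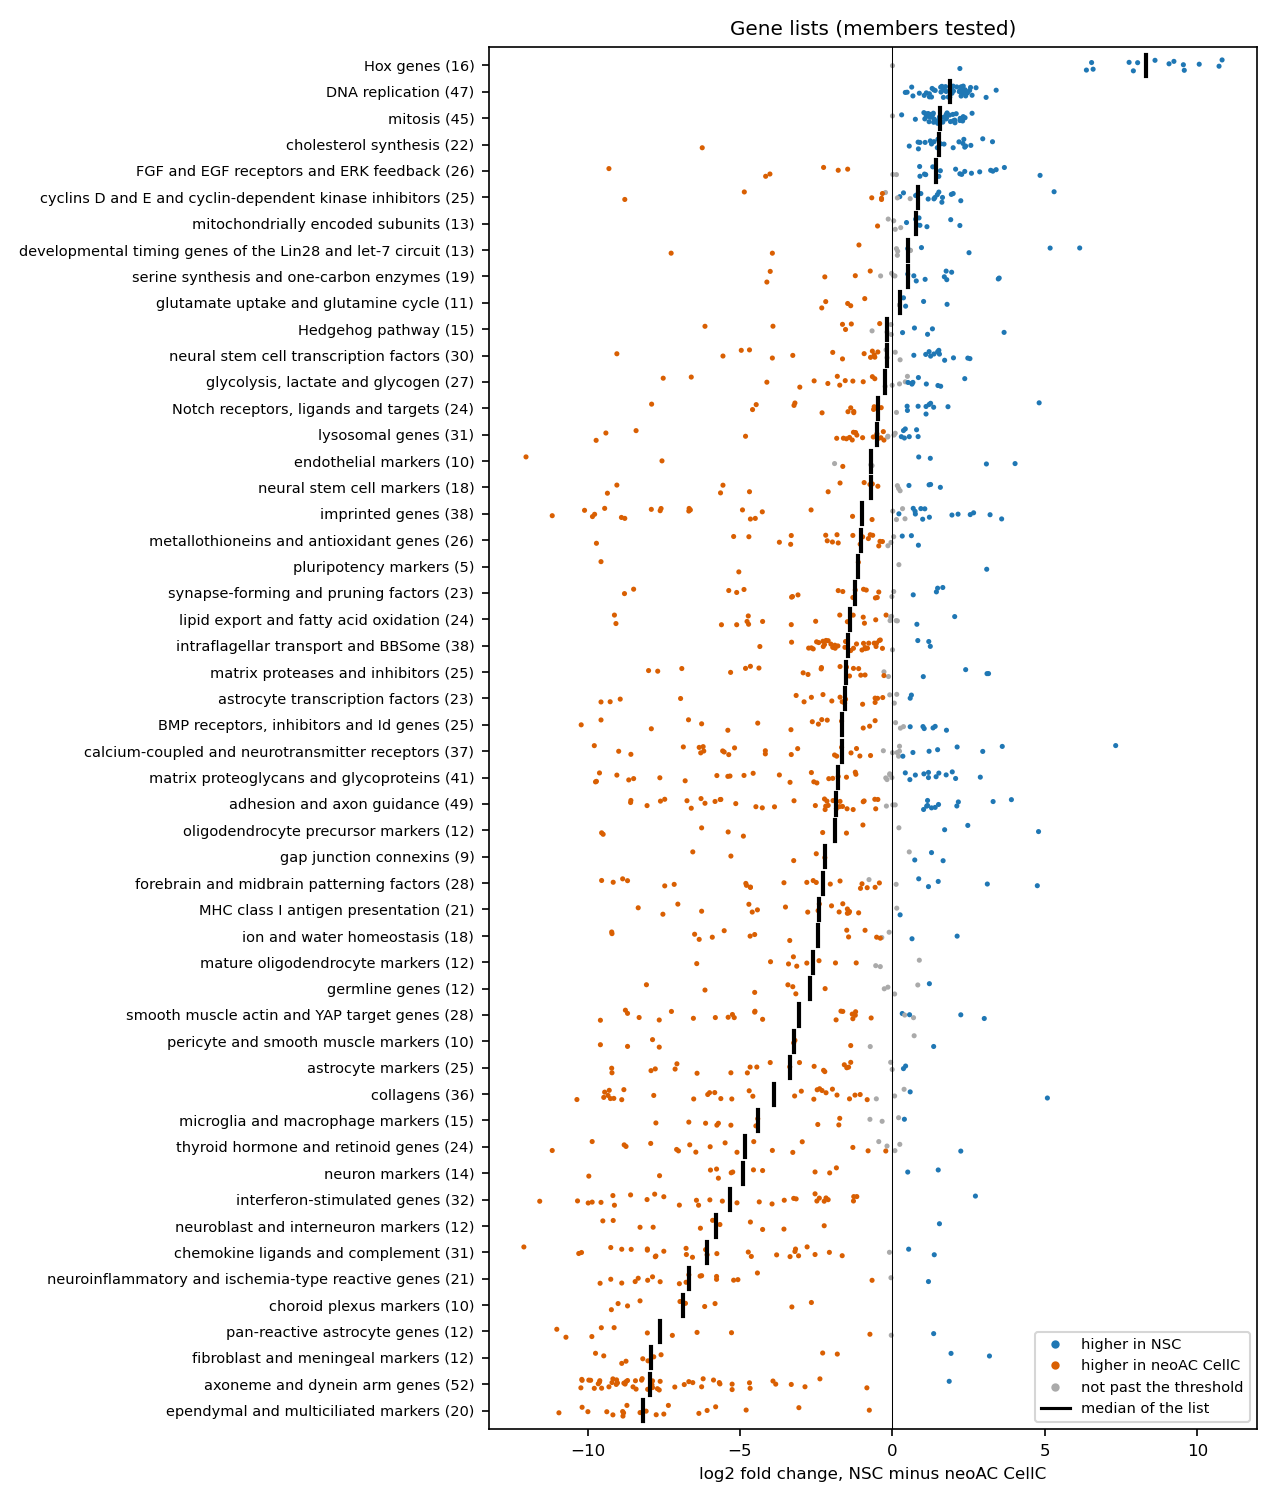
Log2 fold change, NSC minus neoAC CellC, of each tested member of the 52 gene lists (points), sorted by the median of the list (black bars), with the number of members tested in brackets. Ependymal, axoneme and fibroblast lists have the lowest medians and the Hox genes, DNA replication and mitosis the highest.

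Most collagens were lower in NSCs. Of 36 collagens 31 were lower and 2 higher (median -3.90). Col3a1 was at 0.228, 0.0607, 0.159 and 0.201 CPM in NSCs and 106, 164, 86.1 and 110.5 CPM in neoAC CellC. The basement membrane collagen Col4a1 had the highest RPKM in both groups and differed less (273 against 640.0 CPM, -1.23 ± 0.21). The largest difference was that of Col22a1 (0.0231 and 36.3 CPM, ratio 1568, 95% counting interval 520.3 to 7379.9), a collagen of tissue junctions, and Col28a1 (2.98 and 0.0838 CPM, 5.08 ± 0.59) was one of the 2 higher in NSCs. Among 41 other matrix genes, 24 were lower and 12 higher, where 41.8% and 39.0% of all genes were called in these directions. Tenascin C, Tnc, was at 1292, 2798, 1025 and 1378 CPM in NSCs and 434, 373, 306 and 431 CPM in neoAC CellC, and with it the chondroitin sulfate proteoglycans Vcan (292 and 39.5 CPM, 2.88 ± 0.24), Ncan (1304 and 386 CPM, 1.76 ± 0.16) and Bcan (1243 and 433 CPM, 1.52 ± 0.14) were higher in NSCs. Dcn, Thbs1, the fibronectin gene Fn1 (123 and 479 CPM, -1.96 ± 0.27) and Sparc (884 and 3032 CPM, -1.78 ± 0.16), with the highest RPKM in neoAC CellC, were lower. Sparcl1, with the highest RPKM of the list in NSCs, did not pass the threshold (1159 against 1179 CPM, 95% interval -0.29 to 0.24).

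Proteases and their inhibitors were lower in 19 of 25 cases and higher in 4, against 41.8% and 39.0% of all genes. Yet the serine protease inhibitor Serpine2 had the highest RPKM of the list in NSCs (3508 ± 779 CPM against 665 ± 25.98 CPM, 2.40 ± 0.12), and the membrane-type metalloprotease Mmp15 was higher (1702 against 192 CPM, 3.15 ± 0.12), unlike Mmp14 (0.595 and 124 CPM, -7.70 ± 0.15). The largest difference towards neoAC CellC was that of Plau (0.0235 and 7.15 CPM, ratio 304, 95% counting interval 101 to 1432), urokinase. Timp3 (5.22 against 632 CPM) and Timp2 (100.4 against 765 CPM), inhibitors of metalloproteases, were lower. Of 49 adhesion and guidance genes 35 were lower in NSCs and 11 higher, netrin Ntn1 (569 and 132 CPM, 2.11 ± 0.17), the cadherin Cdh4 (605 and 61.5 CPM, 3.30 ± 0.16) and the semaphorin Sema3a (37.02 and 2.497 CPM, 3.90 ± 0.20) among the latter and the cadherin Cdh11 (0.194 and 75.5 CPM, -8.59 ± 0.13) among the former. Cdh2, N-cadherin, had the highest RPKM in neoAC CellC (235 against 446 CPM, -0.93 ± 0.08). Smooth muscle actin and YAP target genes were lower for 22 of 28 members, with Tagln and Ccn2 (1.42 and 451 CPM, -8.31 ± 0.35) and Ccn1 (21.7 and 495 CPM, -4.51 ± 0.20) among them (median -3.05, or -1.77 with genes without counts in a group at their bound), while the YAP partner Tead2 (211 and 26.1 CPM, 3.01 ± 0.11) and the galectin Lgals1 (1291 against 273 CPM) were higher.

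Interferon-stimulated genes were lower in NSCs in 31 of 32 cases (median -5.34). In NSCs 10 of the 32 were under the floor of 3 counts per library. Irf7, the interferon regulatory factor that amplifies the response, had 1 count in the NSC libraries together and 13.9, 57.02, 45.2 and 27.9 CPM in the 4 neoAC CellC libraries. Isg15, a ubiquitin-like modifier, was at 0.163, 0.0911, 0.0955 and 0.1003 CPM in NSCs and 7.52, 54.5, 35.8 and 24.7 CPM in neoAC CellC. The neoAC CellC libraries varied by several-fold between isolations in both genes, the first replicate being the lowest, and the summed level of the list was 214 to 237 CPM in the NSC libraries and 769 to 2027 CPM in the neoAC CellC libraries. Oasl2 (0.0812 and 84.9 CPM, -9.98 ± 0.63) and Bst2 (0.136 and 80.7 CPM, -9.17 ± 0.43) were lower in NSCs too. Ifitm2 was the 1 gene higher in NSCs (72.8 against 11.1 CPM, 2.72 ± 0.12), although it shares sequence with Ifitm3 (22.4 against 119 CPM), the member with the highest RPKM in neoAC CellC, so that its counts are uncertain. MHC class I and antigen presentation genes were lower in 19 of 21 cases (median -2.40), with B2m (81.5 and 219 CPM, -1.43 ± 0.18) and H2-D1 (10.3 and 223 CPM, -4.43 ± 0.32) among them, as was H2-K1 (53.05 against 212 CPM). H2-T23 (0.0163 and 6.39 CPM, ratio 392, 95% counting interval 113 to 3381) had the largest difference, and the proteasome activator Psme2 was the 1 gene higher in NSCs (56.2 against 47.3 CPM, 0.25 ± 0.08), but not with DESeq2 size factors (0.10). The MHC genes are close relatives of each other, which makes their counts uncertain.

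Letters of the interferon response element, GAAANNGAA, on either strand were found in the promoters of 14 of the 26 matched interferon-stimulated genes. They were found for 8.21% of all genes with a promoter. The promoter of Isg15 lies at chr4:156200819-156201068 (- strand) and that of Ifit1 (0.0567 against 33.3 CPM) at chr19:34640639-34640888 (+ strand), each with 3 matches (capitals, overlapping in part). A match is a description of the letters only.
Isg15: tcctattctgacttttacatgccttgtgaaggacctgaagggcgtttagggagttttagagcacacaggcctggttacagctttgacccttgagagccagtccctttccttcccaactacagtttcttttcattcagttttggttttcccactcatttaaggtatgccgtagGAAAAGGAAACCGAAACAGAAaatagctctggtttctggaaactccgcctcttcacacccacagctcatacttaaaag
Ifit1: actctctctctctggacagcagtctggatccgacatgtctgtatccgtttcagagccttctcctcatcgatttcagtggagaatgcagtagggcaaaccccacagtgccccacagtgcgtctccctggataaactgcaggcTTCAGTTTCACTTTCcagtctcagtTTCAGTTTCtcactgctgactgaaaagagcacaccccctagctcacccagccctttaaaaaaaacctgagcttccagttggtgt

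Genes of reactive astrocytes and of complement were lower in NSCs too. Of 12 pan-reactive genes 10 were lower and 1 was higher (median -7.63, or -6.82 with genes without counts in a group at their bound). Of 21 neuroinflammatory and ischemia-type genes 19 were lower and 1, Fkbp5, was higher (90.4 against 39.8 CPM, median -6.68, or -6.31 with genes without counts in a group at their bound). Of 31 chemokine and complement genes 28 were lower and 2 higher (median -6.08, or -4.73 with genes without counts in a group at their bound). In NSCs 17 of the 33 members of that list were under the floor of 3 counts per library. C3, the central complement component, was at 1.27, 2.09, 3.598 and 1.34 CPM in NSCs and 1086, 1277, 762 and 816 CPM in neoAC CellC (log2 fold change -8.88 ± 0.39, adjusted p = 1.31e-15). The siderophore-binding protein Lcn2 (0.554 and 312 CPM, -9.13 ± 1.01), the receptor Osmr (0.0243 and 57.5 CPM, ratio 2369, 95% counting interval 816 to 11576) and the serpin Serpina3n (3.65 and 142 CPM, -5.28 ± 0.51) were lower in NSCs, and so were Cd14 (0 and 2.96 CPM, at least 30.8-fold) and Emp1 (81.2 and 129.6 CPM, -0.67 ± 0.27), the latter not without NSC replicate 3 (-0.45), NSC replicate 4 or neoAC CellC replicate 4 (-0.59 for both). The chemokine Cx3cl1 had the highest RPKM of its list in NSCs (44.01 against 138 CPM, -1.65 ± 0.09), and C2 was higher in NSCs at a low level (1.19 against 0.458 CPM). Vim, vimentin, was high in both groups and lower in NSCs (1855 against 3103 CPM, -0.74 ± 0.14), and Cd44, the hyaluronan receptor, was higher in NSCs (276 against 108 CPM, 1.35 ± 0.16).

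Cholesterol synthesis genes were higher in NSCs in 21 of 22 cases (median 1.53). Sqle, the squalene epoxidase, was at 516, 555, 417 and 496 CPM in NSCs and 186, 171, 172 and 189.8 CPM in neoAC CellC (1.47 ± 0.09), without overlap. Fdps (40.2 and 4.15 CPM, 3.28 ± 0.14), Dhcr7 (255 and 42.9 CPM, 2.57 ± 0.11) and Hmgcs1 (926 and 382 CPM, 1.28 ± 0.14) were higher as well, Fdps with the largest difference and Hmgcs1 with the highest RPKM in both groups. The remaining gene was lower. Genes of lipid export and fatty acid oxidation showed the reverse in 17 of 24 cases (median -1.38, or -1.12 with genes without counts in a group at their bound). Apoe, the main lipid carrier of the brain, was at 75.6, 86.9, 40.4 and 66.7 CPM in NSCs and 2915, 3549, 3804 and 2880.3 CPM in neoAC CellC (log2 fold change -5.61 ± 0.24, adjusted p = 5.75e-17), and the cholesterol exporter Abca1 was lower too (18.8 against 646 CPM, -5.11 ± 0.20), as was Pla2g7 (2.66 and 1438 CPM, -9.07 ± 0.26), and lipoprotein lipase, Lpl, had the largest difference (0.0628 against 37.7 CPM, -9.12 ± 0.30). Fabp5, a fatty acid carrier, was higher in NSCs (338 against 82.3 CPM).

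Of 27 genes of glycolysis, lactate and glycogen 9 were higher and 13 lower in NSCs, near the 39.0% and 41.8% of all genes, and 6 were higher with library sizes alone or in a fit of the 8 libraries. Ldha, the lactate dehydrogenase subunit of glycolytic cells, was at 1063, 1968, 1220.0 and 937 CPM in NSCs and 317, 217, 226 and 245 CPM in neoAC CellC. Ldhb, the subunit of oxidative cells, was at 73.5, 77.1, 80.8 and 82.2 CPM in NSCs and 583, 666, 721 and 602 CPM in neoAC CellC. Hexokinase Hk2 (87.7 and 31.3 CPM, 1.49 ± 0.30) and pyruvate kinase Pkm (1559.5 and 721 CPM, 1.11 ± 0.13) were higher in NSCs, and phosphofructokinase Pfkp (1.97 and 192 CPM, -6.60 ± 0.23) and the glycogen phosphorylase Pygb (158 and 687 CPM, -2.12 ± 0.12) were lower. The lactate exporter Slc16a3 had no count in NSCs and 0.697 ± 0.171 CPM in neoAC CellC. Of 19 genes of serine synthesis and one-carbon metabolism 10 were higher in NSCs, with Shmt1 (125 and 11.3 CPM, 3.47 ± 0.17), Mthfd1l (137 and 12.1 CPM, 3.50 ± 0.20) and Phgdh (373 and 178 CPM, 1.07 ± 0.14), and 5 lower (8 with library sizes alone), with Aldh1l2 (1.24 and 21.8 CPM, -4.12 ± 0.23) and Aldh1l1 (18.8 and 304 CPM, -4.01 ± 0.28), folate enzymes, the latter an astrocyte marker. Psat1 had the highest RPKM in neoAC CellC (542 against 333 CPM, 0.70 ± 0.10).

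Metallothioneins, which bind zinc and copper, were among the largest differences in RPKM. Mt2 was at 1.86, 2.64, 2.48 and 1.84 CPM in NSCs and 1528, 2000.4, 2058 and 1853 CPM in neoAC CellC (843-fold, log2 fold change -9.71 ± 0.18, adjusted p = 3.67e-24). Mt1 and Mt3 had 47.05 ± 5.59 CPM and 56.2 ± 9.59 CPM in NSCs against 1742 ± 238 CPM and 1476 ± 174 CPM in neoAC CellC. With the antioxidant genes, 20 of 26 were lower in NSCs and 3 higher, the peroxiredoxin Prdx6 (213 against 2131 CPM, -3.32 ± 0.13) among the lower and glutathione reductase Gsr (132 against 72.8 CPM, 0.85 ± 0.11) with the largest difference among the higher. Letters of the metal response element, TGCACNC or TGCGCNC, were found in the promoters of Mt1 and Mt2 and not in that of Mt3. They were found for 24.1% of all genes with a promoter. That of Mt2, at chr8:94172368-94172617 (+ strand), holds 3 matches, in capitals.
Mt2: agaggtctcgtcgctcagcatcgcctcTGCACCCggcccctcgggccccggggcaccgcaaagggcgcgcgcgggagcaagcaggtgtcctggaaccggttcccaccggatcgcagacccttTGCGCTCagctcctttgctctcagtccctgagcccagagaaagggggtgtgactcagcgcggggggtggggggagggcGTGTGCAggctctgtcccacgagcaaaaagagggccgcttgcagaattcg

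Lysosomal genes were lower in 20 of 31 cases and higher in 7, against 41.8% and 39.0% of all genes, and 4 were higher with DESeq2 size factors or library sizes alone. The cathepsins Ctsz (0.145 and 125 CPM, -9.72 ± 0.16), Ctsh (0.104 and 73.1 CPM, -9.40 ± 0.27) and Ctsc (0.112 and 39.4 CPM, -8.41 ± 0.23) were near 0 in NSCs, while Ctsd and Ctsb differed by less (233 against 665 CPM and 307 against 746 CPM) and Psap, the saposin precursor with the highest RPKM in both groups, was 885 against 2044 CPM. Npc2, a cholesterol-binding protein, had the largest difference towards NSCs (245 against 137 CPM, 0.84 ± 0.09). Of 13 mitochondrially encoded subunits 8 were higher in NSCs, against 39.0% of all genes, but 5 with DESeq2 size factors or library sizes alone and 4 with 10 counts in every library, and 1, mt-Nd5, lower (1978 against 2774 CPM, -0.49 ± 0.17, with the call lost without NSC replicate 3, -0.38). mt-Co1 had the highest RPKM in neoAC CellC and did not pass the threshold (8241 against 6839 CPM), and mt-Cytb was at 6338, 8252, 4753 and 5895 CPM in NSCs and 3284, 4339, 3370.1 and 3878 CPM in neoAC CellC. The nuclear copies of mitochondrial genes make several of these counts uncertain, those of mt-Co3 (31.6 against 8.39 CPM) and mt-Atp6 (16.9 against 3.65 CPM) above all.

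By difference in RPKM, genes of translation led among those higher in NSCs: Eef1a1 (3222 and 908 RPKM), an elongation factor, Rplp1 (2249 and 879 RPKM), Rpl23a (842 and 193 RPKM), Rpl8 (894 and 276 RPKM), Rpl4 (793 and 208 RPKM) and Rps2 (879.6 and 301 RPKM), ribosomal proteins, with the chaperone Hsp90ab1 (1305 and 502 RPKM), Lgals1 (1429 and 303 RPKM), mt-Cytb (5515 and 3249.6 RPKM) and mt-Nd1 (3009 and 1644 RPKM). Ribosomal protein genes have many processed copies, and the split of their reads is not known. In the other direction the first 10 were Mt2, Apoe, Mt1, Mt3, Cst3 (238 and 1206 RPKM), Cpe (111 and 875 RPKM), Gstm1 (261 and 925 RPKM), Gfap, Igfbp5 (14.2 and 614 RPKM) and Clu (2.7 and 592 RPKM), metal binding, lipid carrier and secreted proteins for the most part. Igfbp5, an IGF-binding protein, was at 25.8, 262, 26.8 and 27.6 CPM in NSCs, where replicate 2 stood apart, and at 3381, 3669.7, 3578 and 4110.1 CPM in neoAC CellC. The log2 fold change was -5.43, and -7.11 without that library.

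By fold, the genes named as higher in NSCs were Hoxa5, Hoxa3 with its antisense RNA Hoxaas2, Pax9, the lncRNAs Fendrr (20.2 and 0.0417 CPM, 8.78 ± 0.41) and Halr1 (65.6 and 0.202 CPM, 8.31 ± 0.27), the neuronal pentraxin Nptx1, Eno1b, Ccdc194 (28.2 and 0.0967 CPM, 8.11 ± 0.31) and Car6 (33.1 and 0.124 CPM, 7.99 ± 0.55). Nptx1 was at 2291, 2867, 2135 and 2138 CPM in NSCs and 15.1, 3.04, 2.33 and 2.44 CPM in neoAC CellC, where the first library stood above the other 3 and without which the log2 fold change of 8.71 was 9.82. Eno1b (199 against 0.493 CPM) is a copy of Eno1, a glycolytic enolase, and its counts are uncertain. Halr1 lies at chr6:52102949-52113684, beside the Hoxa cluster. For Car6, a secreted carbonic anhydrase, NSC replicate 3, at 70.6 CPM, stood above the other 3, and the log2 fold change was 7.31 without it and 8.70 without neoAC CellC replicate 3. In the other direction came Ccn5 (0.271 and 370.3 CPM, -10.39 ± 0.66), Glycam1 (0.06396 and 126 CPM, -10.86 ± 0.41), Ccdc3 (0.152 and 198 CPM, -10.31 ± 0.22) and Klhdc8a (0.1197 and 145 CPM, -10.20 ± 0.22), Bmp6, Ddit4l (0.103 and 120.0 CPM, -10.12 ± 0.20), Rsph4a, Itih5 (0.176 and 192 CPM, -10.06 ± 0.21), Deup1 and Wdr63 (0.127 and 131 CPM, -9.96 ± 0.27). Ccn5, a matricellular protein, was at 0.1304, 0.213, 0.541 and 0.201 CPM in NSCs and 277, 398, 363 and 443 CPM in neoAC CellC, and Itih5, an inter-alpha-trypsin inhibitor chain, at 0.196, 0.182, 0.191 and 0.134 and 166, 209, 185 and 210.0 CPM. Rsph4a, Deup1 and Wdr63 are genes of motile cilia.

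The 5 genes with the highest RPKM in both groups whose 95% interval of the log2 difference lay within 0.5 of 0 were Ckb (1084 and 1007 RPKM), a creatine kinase, mt-Nd4, Actb (672 and 674 RPKM), beta-actin, Cox8a (456 and 404 RPKM) and Sparcl1. With library sizes alone Actb was called lower in NSCs (-0.23). Actb was at 1761, 1888, 1923 and 1631 CPM in NSCs and 1910.0, 1749, 1679.5 and 1884 CPM in neoAC CellC.

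By chromosome the medians differed little. Relative to the median over all autosomal genes tested, chromosome 12 was lowest in NSCs (-0.34, 630 genes), followed by chromosomes 5 (-0.19), 10 and 14 (both -0.17), and chromosome 18 was highest (0.17, 520 genes). On the scale of log2(CPM + 0.5), each NSC library set against the mean of the 4 neoAC CellC libraries gave -0.26 to -0.17 for chromosome 12, and each neoAC CellC library set against the other 3 gave -0.02 to 0.04. No test was made of these medians, since genes are not replicates.

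A further comparison with no library in common was that of AGES against directly isolated neonatal astrocytes (neoAC direct), cells sorted in the same way but not cultured. There 13997 of the same 18941 genes (73.9%) were called, 6218 (32.8%) higher in AGES and 7779 (41.1%) higher in neoAC direct. Of the 7384 genes higher in NSCs 3312 were also higher in AGES (44.9% of the first list, 53.3% of the second) and 1998 were higher in neoAC direct. Of those higher in neoAC CellC 4706 were also higher in neoAC direct (59.5% and 60.5%) and 1760 were higher in AGES. AGES came from the NSC line, so the comparisons share the ESC line, and the neonatal groups the strain and sort.

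Hox genes had a median of 9.28 there and axoneme genes of -4.83, as against 8.32 and -7.96 in NSCs against neoAC CellC. Prom1 (-9.34), Meg3 (-8.52) and Bmp6 (-5.71) were low in AGES as in NSCs, and Cdkn2a was high (8.65). Other lists had medians of the opposite sign: DNA replication had a median of -1.06 (32 of 47 higher in neoAC direct), mitosis of -4.30, cholesterol synthesis of -1.49 and the ERK feedback list of -1.94. For single genes Gfap (4.87), C3 (10.29), Mt1 (3.27) and Vim (3.63) were higher in AGES, and Spry4 (-3.05) and Mest (-0.89) lower. Whether the 2 contrasts differ was not tested.

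**Figure D5:**
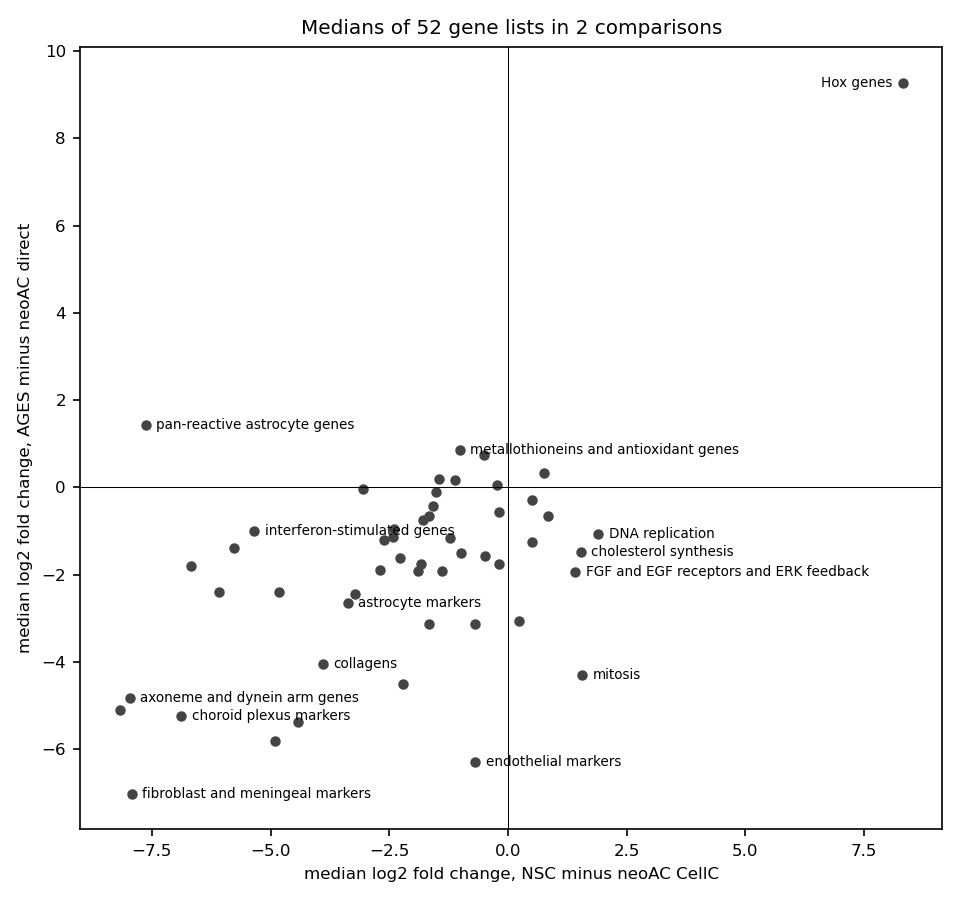
Median log2 fold change of each of the 52 gene lists in NSC minus neoAC CellC (x axis) and in AGES minus neoAC direct (y axis), comparisons without a shared library. Hox genes (8.32 and 9.28) and axoneme genes (-7.96 and -4.83) lie in the same direction on both axes, and DNA replication (1.90 and -1.06) and mitosis (1.56 and -4.30) do not.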

How the data were processed

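The authors made stranded polyA libraries, aligned the read pairs to GRCm38 with STAR and counted reads on the exons of each gene of Gencode vM12 with featureCounts. The alignment allowed several positions per read, but the counting options given name none that adds such reads to the counts. The deposited values are these counts per gene, not normalized. Whether strand was used is not stated, so genes that overlap another on the other strand (84 of the 317 genes named) are uncertain, as are genes with near-identical copies. Symbols, positions, types and exon lengths came from Gencode vM21 (99.5% of genes found by identifier).

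The analysis used R 4.3.3 with edgeR 4.0.16: filterByExpr over 24 libraries, TMM, 1 robust quasi-likelihood fit of the 6 groups, the contrast of NSC and neoAC CellC tested two-sided, Benjamini-Hochberg adjustment over all 19691 genes that passed the filter (698 on X or Y and 52 without annotation among them, not reported) and a threshold of 0.05. The SE was obtained from the log2 fold change and the square root of F. Counts were also simulated for the 8 libraries alone and fitted as 2 groups, with 17023 genes kept by the filter. Few genes were changed, none at a low level and with the direction drawn at random, unlike in the data. There 24 of 50 genes changed 1.5-fold were called, 44 of 50 changed 2-fold and all 50 changed 4-fold, with 10 false calls among 16823 unchanged genes. These rates do not carry over to the fit of 24 libraries.

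The 52 gene lists, from general knowledge, and the comparison itself were chosen with earlier results of these data known. Genes were named by rule: in each direction the first 10 by fold and by RPKM difference among called genes of at least 10 CPM without overlap, of each list the largest changes and highest levels, and 5 abundant genes without a difference. Other list members named were chosen after their values were seen. Groups came from the sample titles. Some genes are not reported here by name. Replicate numbers were not shown to pair the samples. Alternatives were DESeq2 1.42.0 (size factors, Wald test), library size only, 2 other filters, a fit of the 8 libraries with and without a replicate block, and leaving out each library. Intervals and floors cover counting error only.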

Additional observations from a re-analysis of the deposited data

Results flagged for a closer look

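For the named genes with a mean of at least 1 CPM in a group, 511 sets of 4 libraries were examined, and in 45 of them the highest or lowest library lay so far from the nearest of the others that the gap passed Dixon's critical value at 95%. Chance gives about 1 in 20. NSC replicate 2 held 16 of these and NSC replicate 3 11. NSC replicate 1 was far above the other 3 libraries of its group for Atp1b1 (16.6 CPM, the others 12.96 to 13.5 CPM). NSC replicate 2 was far above the other 3 libraries of its group for Aldh1l2 (1.91 CPM, the others 0.978 to 1.05 CPM), B2m (106 CPM, the others 71.2 to 75.4 CPM), Cnp (2.94 CPM, the others 1.96 to 2.07 CPM), Fabp5 (445 CPM, the others 294 to 312 CPM), Fgfr3 (78.3 CPM, the others 26.6 to 34.2 CPM), H2-K1 (84.4 CPM, the others 39.3 to 44.4 CPM), Hoxb4 (14.9 CPM, the others 10.9 to 11.3 CPM), Igfbp5 (262 CPM, the others 25.8 to 27.6 CPM), Lgals1 (1787 CPM, the others 1092 to 1182 CPM), Mmp15 (1839 CPM, the others 1649 to 1666 CPM), Notch3 (201 CPM, the others 84.1 to 101 CPM) and Rara (77.3 CPM, the others 32.8 to 35.3 CPM). It was far below them for Acsbg1 (547 CPM, the others 673 to 697 CPM), Bmpr1a (246 CPM, the others 302 to 308 CPM), Chrm3 (119.9 CPM, the others 126 to 127 CPM) and En1 (4.402 CPM, the others 7.04 to 7.42 CPM). NSC replicate 3 was far above the other 3 libraries of its group for Car6 (70.6 CPM, the others 15.7 to 23.96 CPM), Fabp7 (1039 CPM, the others 701 to 754 CPM), Gsr (151 CPM, the others 124 to 127 CPM), Hoxb9 (3.18 CPM, the others 0.334 to 0.782 CPM), Hsp90ab1 (4518 CPM, the others 3654 to 3767 CPM), Lfng (118 CPM, the others 91.7 to 95.6 CPM), Mcm6 (379.8 CPM, the others 304 to 310.0 CPM) and Serpine2 (4668 CPM, the others 2994 to 3188 CPM). It was far below them for Hmgcs1 (611 CPM, the others 1012 to 1057 CPM), Ift88 (5.25 CPM, the others 6.28 to 6.49 CPM) and Sox2 (77.5 CPM, the others 104 to 107 CPM). NSC replicate 4 was far below the other 3 libraries of its group for Pfkp (1.204 CPM, the others 2.15 to 2.26 CPM). neoAC CellC replicate 1 was far above the other 3 libraries of its group for Gas1 (155 CPM, the others 125 to 128 CPM), Gsr (83.8 CPM, the others 68.1 to 69.9 CPM), Il17rd (11.9 CPM, the others 8.37 to 8.73 CPM), Nptx1 (15.1 CPM, the others 2.33 to 3.04 CPM), Rara (10.9 CPM, the others 8.88 to 9.12 CPM) and Spry4 (37.03 CPM, the others 11.9 to 15.6 CPM). It was far below them for Gad1 (5.18 CPM, the others 6.71 to 6.96 CPM). neoAC CellC replicate 2 was far below the other 3 libraries of its group for Dhcr7 (36.8 CPM, the others 44.6 to 45.2 CPM) and Ndn (70.8 CPM, the others 134 to 138 CPM). neoAC CellC replicate 3 was far above the other 3 libraries of its group for Cst3 (1681 CPM, the others 1461 to 1485 CPM), Fgfr3 (232 CPM, the others 196 to 200.0 CPM) and Mt3 (1735 CPM, the others 1366 to 1406 CPM). neoAC CellC replicate 4 was far above the other 3 libraries of its group for Hmgcs1 (443 CPM, the others 356 to 368 CPM) and Nanog (1.91 CPM, the others 1.802 to 1.81 CPM). It was far below them for Cfap43 (75.3 CPM, the others 87.5 to 89.1 CPM) and Nnat (197 CPM, the others 237 to 243 CPM).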

How the results depend on the processing

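The number of genes called and its split between the groups stayed within 1.5 times under DESeq2 size factors, library sizes alone, no filter, the DESeq2 Wald test, the fit of the 8 libraries and every library left out, with 15066 to 15315 genes called, 7223 to 7324 higher in NSCs and 7830 to 7991 higher in neoAC CellC in the last case. The median of all genes moved from -0.05 to -0.20 with DESeq2 size factors, to -0.27 with library sizes alone and to -0.25 in the Wald test. Where each library had to hold 10 counts or more of a gene, 9268 genes were called, 4575 higher in NSCs and 4693 higher in neoAC CellC. This filter removes genes that are near 0 in either group, Hox genes among them, and 24 genes called in both fits were called in opposite directions. Under it the medians changed sign for pluripotency (1.34), oligodendrocyte precursor (0.05), neuron (0.19) and endothelial markers (0.55), glutamate uptake (-0.65), connexins (0.69), neural stem cell transcription factors (0.39) and imprinted genes (0.43), and the differences of Fgfr1 (-0.30) and Psme2 (-0.06) were negative. Fgfr1 was also negative with library sizes alone (-0.21). A log2 difference over 1 was held by 10032 called genes, 3759 of them higher in NSCs. The median of chromosome 12 was -0.30 among genes with a mean of at least 10 CPM and among protein coding genes, and -0.38 to -0.30 with a library left out, and that of chromosome 3 was 0.03 among genes of at least 10 CPM. The cause of these shifts was not tested.

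The replicate numbers were not shown to pair the samples: their deviations correlated at -0.005 to 0.057, and not every sample correlated best with its own number. A replicate block in the fit of the 8 libraries gave 13358 calls, 6231 higher in NSCs and 7127 higher in neoAC CellC, against 13593 without it.

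Of the genes named, 6 lost their call with DESeq2 size factors, 7 with library sizes alone and 6 with the filter of 10 counts. That filter removed many of the named genes, which are not counted there. It left 189 with the same result, against 307 with DESeq2 size factors. Leaving out 1 library moved the fold of 26 named genes by over 1.5 times, and 1 of these, Hoxb9, lost its call. Among the others, Cldn5 was at -1.09 without neoAC CellC replicate 2, Gjb2 at -8.94 without NSC replicate 4, H19 at -11.76 without NSC replicate 1, Dio3 at -12.78 and Mirg at -9.53 without NSC replicate 2, and Hoxa5 at 11.48 without neoAC CellC replicate 3, against -1.90, -6.55, -8.89, -11.16, -6.67 and 10.71 with all libraries. Depth limits statements on genes under 3 counts per library.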
